A study of Mus musculus with 13 samples.

Results

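Lesions of tail vertebral bone from mice that had lost 1 allele each of Prkar1a and Prkaca were compared with the same bone of wild-type (WT) mice. The comparison used 6 of the 13 samples of the series: 2 lesion samples labelled Prkar1a+/-Prkaca+/- and 4 WT samples. All 10992 genes that had a named probe with a usable signal on the bead arrays entered it, whatever their difference. The mice of all groups were 9 months old and on a C57BL/6x129Sv/B6 hybrid background. The remaining samples were 4 of Prkaca+/- bone without lesion and 3 of lesions from Prkar1a+/- mice, and they served to estimate the spread between replicates. Each double heterozygous sample is a lesion and each WT sample is not, so the lesion, the Prkar1a allele and the Prkaca allele cannot be told apart in this comparison. How a lesion was chosen, how much of the dissected bone it filled and whether each sample came from a separate mouse were not found in the labels. The p-values therefore measure only the spread between these samples, which may be technical.

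Protein kinase A (PKA) is the kinase that cyclic AMP (cAMP) switches on. In its resting form a dimer of regulatory subunits holds catalytic subunits inactive, and cAMP releases them. Prkar1a encodes the regulatory subunit RIα and Prkaca the catalytic subunit Cα. In bone, cAMP carries the signal of parathyroid hormone in cells of the osteoblast line, which build bone matrix and make RANKL, the cytokine that drives osteoclasts to resorb bone.

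Between 13555 and 14831 of 25697 probes per array were detected, with a deposited detection p-value under 0.01, including 14654 and 14831 on the lesion arrays. Values below are log2 of the background-corrected, quantile-normalised intensity, and a gene is called when the adjusted p of the limma fit over all probes is under 0.05. The number of arrays limits the precision. The libraries did not stand at equal distances from each other. On the first principal component, which held 66.0% of the variance, the WT arrays lay at -26.3, -15.5, -51.2 and -47.1 and the lesion arrays at 54.7 and 48.0. WT arrays 1 and 2 thus lay nearest to the lesions. WT array 2 and lesion array 2 had high Xist and low levels of the Y-linked Eif2s3y and Kdm5d, so by these genes each group held both sexes. Over the 6 arrays the osteocalcin gene Bglap of bone lay between 10.58 and 13.46. The collagenase gene Mmp13, which cartilage cells also make, lay between 11.91 and 15.56. Both were higher in the lesions, as given below.

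Both targeted genes were lower in the lesions. Prkar1a measured 12.62, 12.54, 12.62 and 12.51 on the 4 WT arrays and 11.29 and 11.16 on lesion arrays 1 and 2. It fell by 1.35 ± 0.15 on the log2 scale (SE, 2 against 4 arrays), to 39.3% of WT (95% interval 31.6% to 48.9%, adjusted p = 1.41e-04). Prkaca measured 11.33, 11.40, 11.62 and 11.42 in WT and 9.68 and 9.19 in the lesions. It fell by 2.00 ± 0.27 on the log2 scale, to 24.9% of WT (95% interval 16.6% to 37.4%, adjusted p = 5.18e-04), and a second probe of the gene fell by 1.94. For both genes the lesion arrays lay below every WT array, which gives an exact two-sided permutation p of 0.133, the smallest that 2 against 4 arrays allow. The position of the probes relative to the deleted parts was not known, so these levels check the labels only in part.

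The other PKA genes did not all follow. Of 10 listed subunits and inhibitors 8 were tested, of which 0 were called higher and 3 lower, Prkar1a, Prkaca and Prkar2a. Over all 10992 genes, 14.3% were called higher and 11.4% lower. Prkar2a, the RIIα regulatory subunit, measured 9.89, 9.79, 10.05 and 10.13 in WT and 9.39 and 8.95 in the lesions and fell by 0.79 ± 0.22 (adjusted p = 0.0222). Its call was lost without WT array 3, WT array 4, lesion array 1 or lesion array 2 (adjusted p = 0.0514, 0.0547, 0.0533 and 0.194). Pkia, which encodes a muscle-rich PKA inhibitor, lay below every WT array in both lesions, at 10.76 and 11.24 against 12.26 to 13.17, but was not called (log2 difference -1.82 ± 0.64, adjusted p = 0.0531). The second catalytic subunit gene Prkacb differed by -0.09 ± 0.16, the related kinase Prkx by 0.06 ± 0.15 and the inhibitor Pkig by -0.13 ± 0.17. Prkar2b, which encodes RIIβ, was not well above background on any of the 6 arrays.

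**Figure D1:**
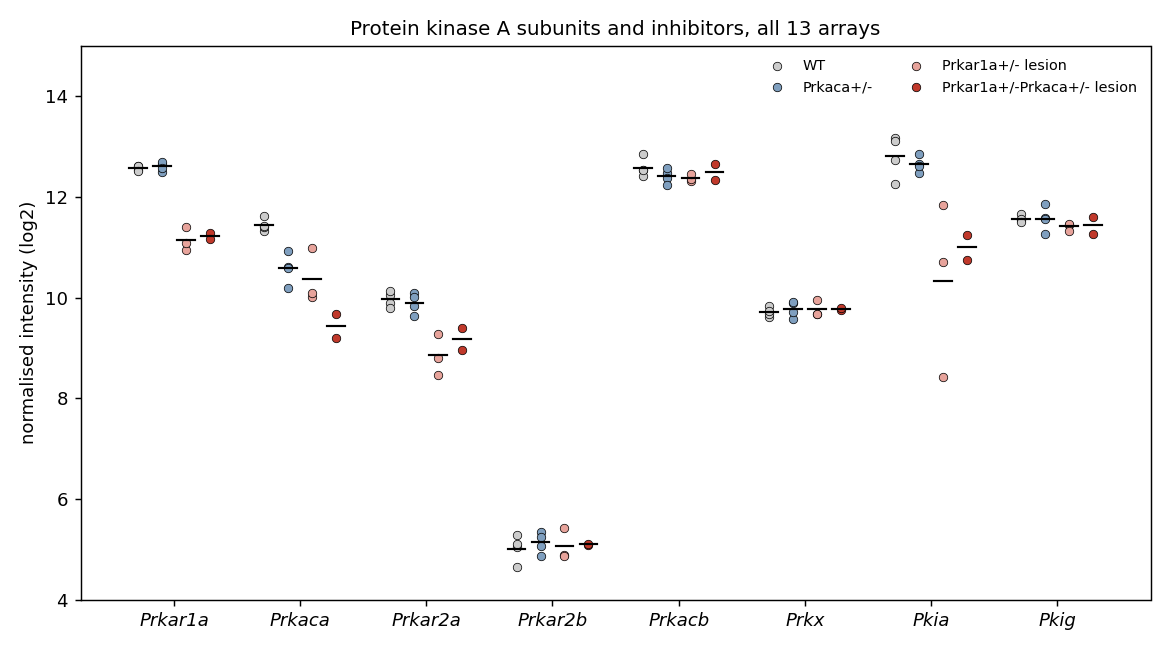
Normalised log2 intensity (vertical axis) of the 8 tested PKA genes on all 13 arrays, with 1 point per array and a bar at each group mean. For Prkar1a and Prkaca the 2 Prkar1a+/-Prkaca+/- lesion arrays lie below all 4 WT arrays, at 11.29 and 11.16 and at 9.68 and 9.19.

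Prkaca was also set against the groups with 1 targeted gene each. Its log2 difference was -0.93 against Prkar1a+/- lesions (95% interval -1.54 to -0.31, not called) and -1.14 against Prkaca+/- bone (adjusted p = 0.00940). Prkar1a differed by 0.08 from Prkar1a+/- lesions, with a 95% interval of -0.25 to 0.41. One of the 6 annotated start sites of Prkar1a carries a cAMP response element, the site bound by factors that PKA activates. It is shown because RIα restrains the pathway that acts through this element. The promoter sequence is from RefSeq (GRCm38.p6, chr11:109650889-109650918, plus strand), with the element in capitals, 49 bases before the start.
Prkar1a: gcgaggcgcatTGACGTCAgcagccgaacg
The element TGACGTCA was searched in the 250 bases before each start, and its reverse complement is the same. It occurred in 1.55% of all 32851 RefSeq promoters, in 2.35% of those of tested genes, in 1.31% of those of genes called higher and in 2.93% of those of genes called lower. A match is a description of letters and not evidence of a bound site.

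Among genes of cAMP production, breakdown and response, 6 of 29 tested rose and 4 fell. These shares were 20.7% and 13.8%, beside 14.3% and 11.4% over all genes. The median log2 difference was -0.04, beside -0.01 over all genes. The risers included Pth1r, the parathyroid hormone receptor (8.41, 8.26, 8.27 and 8.19 in WT, 9.61 and 9.97 in the lesions, 2.84-fold). Il6, a cytokine that parathyroid hormone induces in osteoblasts, measured 5.57, 5.15, 4.96 and 4.80 in WT, detected on 1 of 4 arrays, and 7.08 and 7.30 in the lesions. It rose 4.201-fold (adjusted p = 1.56e-04). The falling genes were led by the coactivator Ppargc1a (7.10 to 9.06 in WT, 6.16 and 6.34 in the lesions), the cAMP-responsive transcription factor Creb1 (-0.85) and the adenylyl cyclase Adcy9 (-0.79). These 3 lost their call without lesion array 1 (adjusted p = 0.177 to 0.323) and without WT array 1, 3 or 4 (0.0502 to 0.0945). Ppargc1a and Adcy9 lost it without lesion array 2 or Prkaca+/- array 2 (0.0510 to 0.132), and Adcy9 without Prkar1a+/- lesion array 3 (0.0519). A second Creb1 probe, near background and detected on 1 of 4 WT arrays, stood at 0.22 and was not called. Crem, a feedback repressor induced by cAMP, measured 6.12 and 5.92 in the lesions within the WT range of 5.54 to 6.64.

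Over all genes, 1571 rose in the lesions and 1256 fell, 25.7% of those tested. The count of each gene list below is to be set beside these shares of 14.3% higher and 11.4% lower. Without lesion array 1 these counts were 572 and 164, without lesion array 2 they were 831 and 378, and without WT array 3 or 4 the falls numbered 696 and 707. Both lesion arrays stood above all 4 WT arrays in 1548 of the 1571, and below all of them in 1241 of the 1256. The calls rest on these same arrays, so these 2 counts follow largely from the calling. Over all tested genes, 24.4% had both lesion arrays above and 23.4% below all WT arrays. The size of the change was at least 2-fold for 772 of the genes that rose and 529 of those that fell, and at least 8-fold for 20 and 2.

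Slpi, a secreted protease inhibitor, measured 11.48, 8.40, 6.85 and 6.72 in WT and 14.07 and 14.19 in the lesions, a 54.6-fold rise (log2 5.77 ± 1.06, adjusted p = 0.00348). Calb2, which encodes the calcium-binding protein calretinin, measured 7.82, 4.53, 4.49 and 4.40 in WT, where 1 of 4 arrays detected it, and 11.74 and 9.98 in the lesions, a 46.9-fold rise (5.55 ± 0.81, adjusted p = 8.14e-04). A second Calb2 probe, which no WT array detected, measured 4.39 to 4.80 in WT and 8.33 and 5.99 in the lesions, and its fitted difference of 2.55, which is no bound, was also called. Both lesion arrays lay above every WT array for both genes, which the choice of the largest rises required. WT array 1 stood well above the other WT arrays. Brinp3 (34.2-fold, 10.32 and 10.51 in the lesions), the proton pump subunit gene Atp12a (32.5-fold, 12.54 and 10.42), the serine protease family gene Prss35 (28.7-fold, 12.91 and 12.87) and the B cell chemokine gene Cxcl13 (25.4-fold, 14.15 and 13.25) came next, with WT ranges of 4.40 to 7.53, 5.07 to 10.06, 7.01 to 9.99 and 7.45 to 11.96. Brinp3 was detected on 1 and Atp12a on 2 of the 4 WT arrays. WT array 1 was the highest WT array for 13 of the 15 largest rises, and WT array 2 for the other 2, Kng1 and Sfrp4. Over all 1571 genes that rose the order was the reverse, with WT array 2 the highest for 860 and WT array 1 for 440. Without WT array 1 the rise was 112-fold for Slpi, 83.7 for Calb2, 57.1 for Brinp3, 74.8 for Atp12a, 44.9 for Prss35 and 49.98 for Cxcl13. No remaining WT array then detected Calb2 or Brinp3, so their folds in that fit are fitted values and no bounds. Without lesion array 1, Calb2 rose 25.4-fold and without lesion array 2 86.4-fold. Atp12a and Cxcl13 lost their call without lesion array 1 (adjusted p = 0.105 and 0.0928), and without lesion array 2 Atp12a rose 67.8-fold.

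Several of the other large rises had a narrow spread. Tnn, which encodes tenascin-W, a matrix protein of forming bone, measured 6.41, 5.90, 5.53 and 5.54 in WT and 9.73 and 9.95 in the lesions. It rose 15.9-fold (3.99 ± 0.31, adjusted p = 8.66e-05). Ifitm5, an osteoblast membrane protein gene, measured 7.61, 7.08, 7.13 and 7.26 in WT and 10.92 and 10.90 in the lesions, a 12.4-fold rise (3.64 ± 0.34, adjusted p = 8.66e-05). In both genes the lesion arrays lay close together and far above the highest WT array, WT array 1. The kininogen gene Kng1 rose 9.73-fold and Adgra1, an adhesion receptor, 14.1-fold, the latter detected on 1 of 4 WT arrays. The call of Kng1 was lost without lesion array 1 (adjusted p = 0.0735), and Adgra1 rose 8.20-fold without lesion array 1 and 24.3-fold without lesion array 2. Tnfsf11, which encodes RANKL, measured 7.56, 5.55, 5.34 and 5.51 in WT, detected on 3 of 4 arrays, and 10.08 and 8.41 in the lesions. It rose 9.56-fold (3.26 ± 0.58, adjusted p = 0.00277), by 17.1-fold without lesion array 2, and without lesion array 1 its adjusted p was 0.0535.

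**Figure D2:**
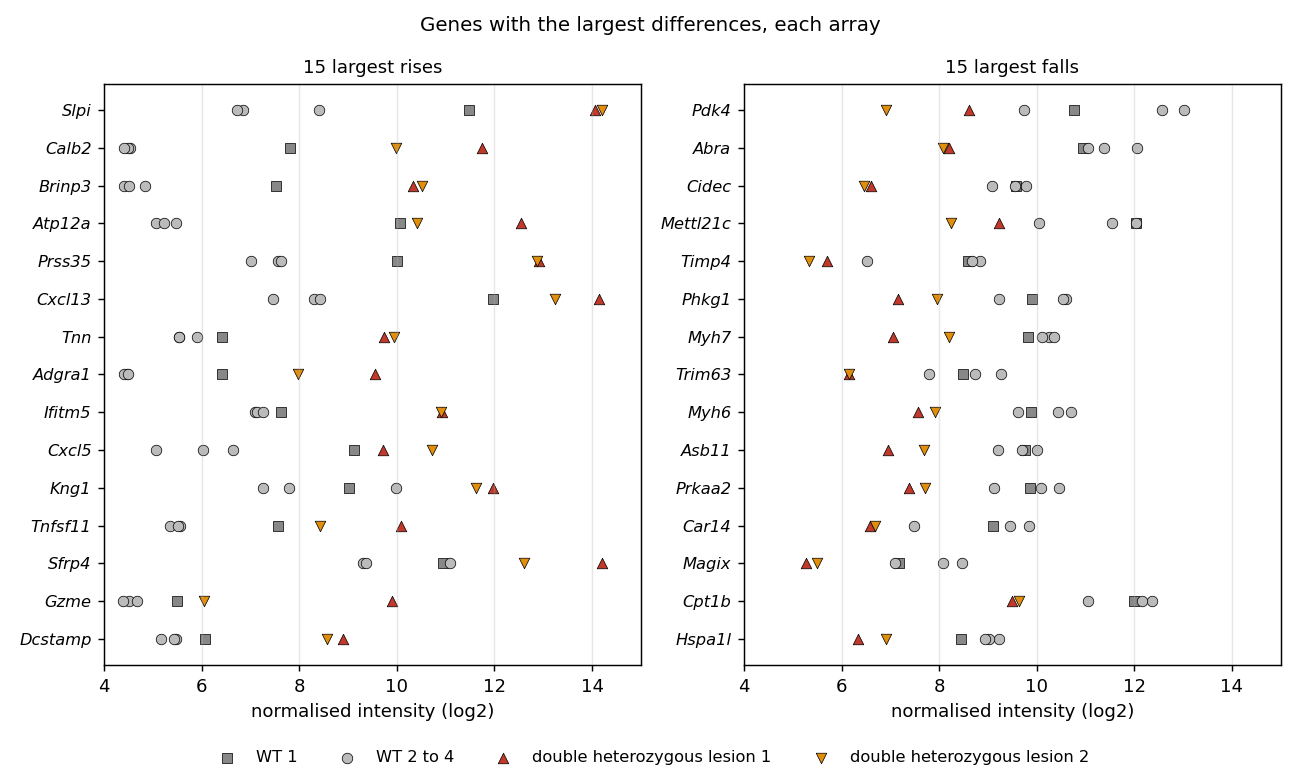
Normalised log2 intensity (horizontal axis) of the 15 genes with the largest rise (left) and the largest fall (right) among called genes whose lesion and WT arrays did not overlap, with 1 symbol per array. The lesion arrays lie to the right of all WT arrays on the left side, from 6.04 for Gzme to 14.20 for Sfrp4, and WT array 1 (square) is the WT array nearest to them for 13 of 15 genes.

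Ifitm5 and Tnfsf11 stand for bone formation and for the signal that starts resorption, so the 120 bases before their start are given (RefSeq, GRCm38.p6, minus strand, chr7:140950244-140950363 and chr14:78308044-78308163). Neither holds any of the 3 motifs searched in the 250 bases before the start on both strands: the cAMP response element, the AP-1 site TGANTCA and the RUNX site TGTGGTT. These occurred in 1.55%, 6.75% and 4.40% of all promoters.
Ifitm5: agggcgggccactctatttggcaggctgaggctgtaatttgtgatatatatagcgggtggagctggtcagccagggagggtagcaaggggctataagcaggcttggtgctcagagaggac
Tnfsf11: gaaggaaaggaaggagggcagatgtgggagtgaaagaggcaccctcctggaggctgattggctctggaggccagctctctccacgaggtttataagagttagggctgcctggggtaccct
Of the 30 genes with the largest changes 21 had a RefSeq promoter, and 2 of these held a match, shown with the motif in capitals. Gzme, a granzyme, has a RUNX site on the opposite strand 176 bases before its start (chr14:56120783-56120812, minus strand). Cidec, of the lipid droplet, has an AP-1 site 96 bases before one of its 2 starts (chr6:113434842-113434871, minus strand).
Gzme: caggcctcctcAACCACAgcttccaaccct
Cidec: accaggaggtgTGACTCAcctcctgccagc
The RUNX site was in 2.93% of promoters of genes called higher and 3.30% of those of tested genes, and the AP-1 site in 6.29% of those called lower and 5.25% of those tested. Absence of the letters from these windows says nothing of the factors.

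Osteoblast genes were among the most often raised. Of 22 listed, 18 were tested, and 13 rose (72.2%) and 1 fell (5.56%), beside 14.3% and 11.4% over all genes. The median log2 difference of the 18 was 1.52, and 1.55 and 1.56 for lesion arrays 1 and 2 alone. Sp7 (osterix), a transcription factor of committed osteoblasts, measured 10.44, 9.63, 9.57 and 9.81 in WT and 12.63 and 12.31 in the lesions, a 6.10-fold rise (adjusted p = 1.74e-04). Ibsp (bone sialoprotein), which nucleates mineral, measured 12.08, 10.77, 11.91 and 11.37 in WT and 14.46 and 14.16 in the lesions, a 6.83-fold rise. Alpl, the alkaline phosphatase of mineralising cells, measured 9.71, 8.94, 8.57 and 8.88 in WT and 11.38 and 11.92 in the lesions, a 6.20-fold rise. Bglap (osteocalcin) rose 4.77-fold, from 10.58, 11.66, 10.62 and 10.72 to 12.83 and 13.46, with WT array 2 above the other WT arrays and an adjusted p of 0.0576 without lesion array 2. The lesion arrays lay above all WT arrays for each of these 4 genes. Of the 18 tested genes 15 had no overlap upwards, beside 24.4% over all genes. In bulk RNA, more cells of a type and more RNA per cell cannot be told apart. The gene that fell was Mef2c (13.96, 13.89, 14.43 and 14.30 in WT, 13.11 and 12.96 in the lesions, log2 -1.11 ± 0.28), a transcription factor that muscle also expresses. Its call was lost without lesion array 1 or 2 (adjusted p = 0.0769 and 0.0932), and its other 2 probes differed by -1.26 (called) and -1.51 (not called, adjusted p = 0.0542). Runx2 had no named, tested probe and was not analysed here.

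Osteocyte genes moved less often than osteoblast genes by count. The share called higher was 22.2%, beside 14.3% over all genes. Of 9 tested 2 rose, Phex, an endopeptidase of phosphate control (7.42, 7.60, 6.63 and 7.11 in WT, 9.26 and 8.23 in the lesions, 2.93-fold), and the homeobox gene Irx5 (7.77, 7.58, 7.74 and 7.45 in WT and 9.34 and 8.63 in the lesions, 2.54-fold), and 0 fell. Both calls were lost without lesion array 1 (adjusted p = 0.116 and 0.0859). The matrix protein gene Dmp1 was near background, detected on 0 of 4 WT and 1 of 2 lesion arrays, and differed by 0.49 ± 0.19 without a call. Whether the shares of the osteoblast and osteocyte lists differ was not tested.

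Osteoclast genes rose on both lesion arrays, 11 of 17 tested (64.7%, beside 14.3% over all genes) with 0 fallers and a median of 1.02. Acp5, the tartrate-resistant acid phosphatase by which osteoclasts are stained, measured 7.33, 6.22, 5.79 and 6.38 in WT and 9.44 and 9.15 in the lesions (7.28-fold, adjusted p = 3.07e-04). Ctsk, the collagen-degrading cathepsin K, measured 13.28, 13.36, 12.14 and 12.67 in WT and 15.35 and 15.31 in the lesions (5.53-fold). Dcstamp, needed for osteoclast precursors to fuse, measured 6.06, 5.47, 5.16 and 5.43, detected on 3 of 4 WT arrays, and 8.89 and 8.56 (9.19-fold, adjusted p = 8.66e-05). The gelatinase gene Mmp9 measured 12.55, 11.24, 11.31 and 12.01 in WT and 14.82 and 14.58 in the lesions, a 7.59-fold rise. No lesion value of these 4 genes overlapped with WT, and WT array 1 was nearest for Acp5, Dcstamp and Mmp9. Of the genes of lysosomes and of the proton pump with which osteoclasts acidify bone, 13 of 22 rose and 0 fell (median 0.89), among them the cathepsin Ctsh (3.89-fold, 11.60 and 11.59 in the lesions against 9.14 to 10.16), the cholesterol carrier Npc2 (2.74-fold) and the protease legumain, Lgmn (2.67-fold). The count was 6 when lesion array 1 was left out and 6 when lesion array 2 was, and Lgmn lost its call in both (adjusted p = 0.0731 and 0.10). Lamp1 (0.13) and Ctsd (-0.08), general lysosomal genes, were not called, and Ctsb rose 1.82-fold, with no call without WT array 1, 3 or 4 or lesion array 1 or 2 (adjusted p = 0.0544 to 0.175).

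**Figure D3:**
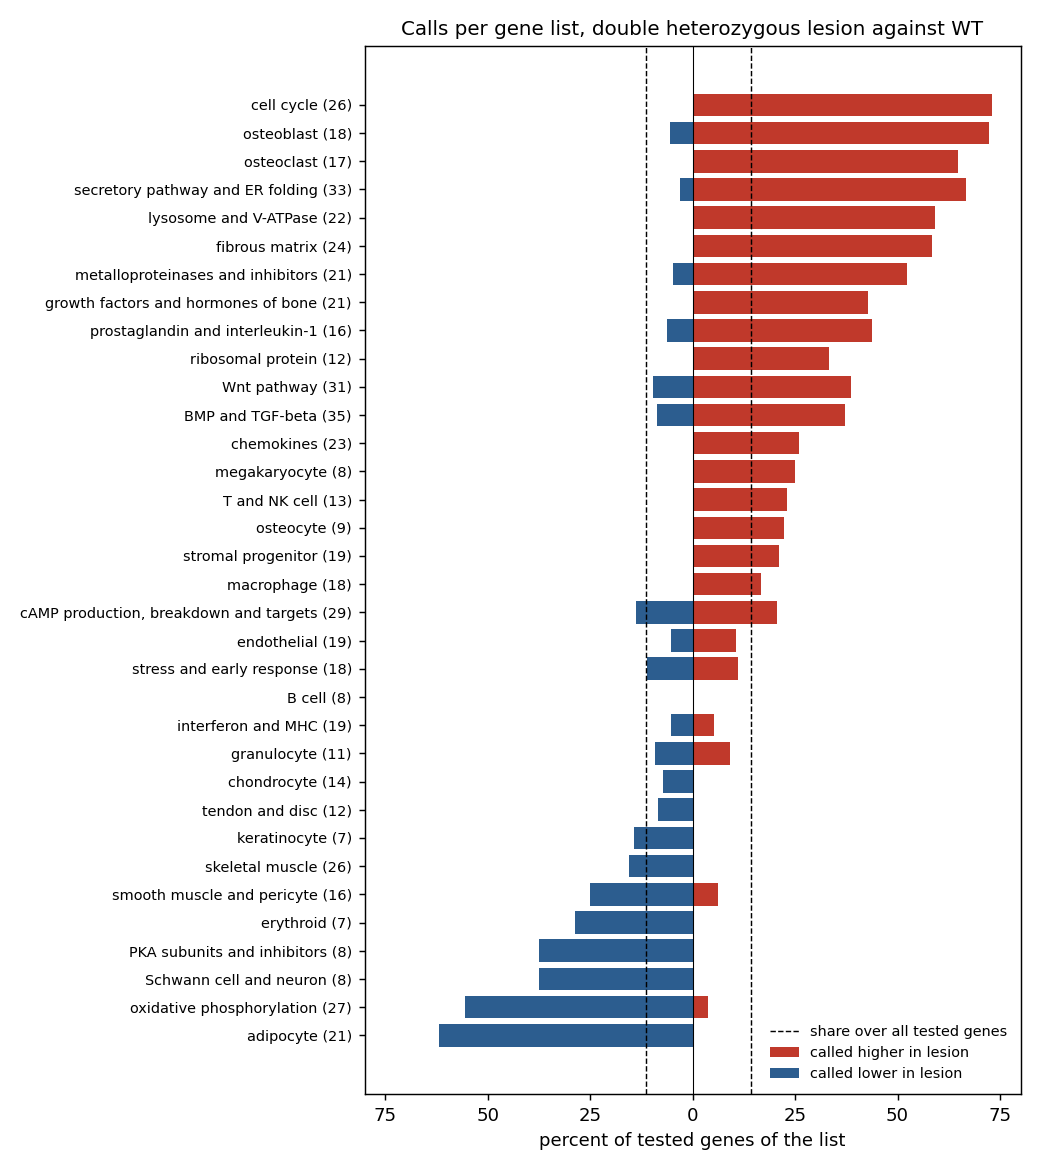
Percent of the tested genes of each list that were called higher (red, to the right) or lower (blue, to the left) in the double heterozygous lesions against WT, with the number tested in brackets. Dashed lines mark the 14.3% and 11.4% over all tested genes, and the cell cycle and osteoblast lists reach 73.1% and 72.2% higher, the adipocyte list 61.9% lower.

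Matrix genes of fibrous tissue rose as well, 14 of 24 with 0 falling (median 1.01), a share of 58.3% beside 14.3% over all genes. Col5a1, a chain of the collagen that starts fibrils, measured 11.53, 12.11, 11.30 and 11.45 in WT and 13.61 and 13.75 in the lesions (4.22-fold, adjusted p = 9.09e-05). Its partner chain gene Col5a2 measured 7.38, 7.98, 6.38 and 7.66 in WT and 9.32 and 9.45 in the lesions (4.09-fold), and the fibrillar collagen gene Col3a1 13.03, 13.85, 12.49 and 12.54 in WT and 14.52 and 14.35 in the lesions (2.74-fold). The proteoglycan lumican, Lum, measured 11.47, 12.96, 10.17 and 10.62 in WT and 13.77 and 14.32 in the lesions, a 6.67-fold rise. WT array 2 was the highest WT array for these 4 genes, and the lesion arrays lay above it in each. Lum was not called without lesion array 2 (adjusted p = 0.0613), and the count of the list was 9 without lesion array 1 and 9 without lesion array 2. Genes of matrix breakdown rose at the same time: 11 of 21 metalloproteinases and inhibitors rose (52.4%) and 1 fell (4.76%). The collagenase gene Mmp13, a product of osteoblasts and cartilage cells, measured 13.36, 12.39, 11.91 and 12.57 in WT and 15.56 and 15.37 in the lesions (7.50-fold, adjusted p = 1.34e-04), a log2 difference of 2.91, and its other 2 probes rose by 4.16 and 3.05. The membrane-bound Mmp14 measured 11.72, 12.65, 11.28 and 11.23 in WT and 14.08 and 14.23 in the lesions (5.41-fold). The inhibitor Timp1, made by many stromal cells, measured 10.38, 10.88, 9.31 and 9.99 in WT and 13.01 and 13.06 in the lesions (7.45-fold). Timp4, an inhibitor that fat and muscle express, fell from 8.58, 6.53, 8.85 and 8.68 to 5.71 and 5.32 (log2 -2.64 ± 0.59). It lost its call without lesion array 1 or 2 (adjusted p = 0.0541 and 0.0666).

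The secretory pathway, through which collagen leaves the cell, had 22 of 33 tested genes higher (66.7%) and 1 lower (3.03%), at a median of 0.87. Over all genes 14.3% were called higher and 11.4% lower. The retrieval receptors Kdelr3 and Kdelr2 measured 11.57 and 11.45 and 10.99 and 11.19 in the lesions against WT ranges of 9.38 to 9.96 and 8.72 to 9.44, rises of 3.89-fold and 3.89-fold (adjusted p = 8.66e-05 and 2.43e-04). P3h1, which hydroxylates collagen proline, rose 3.28-fold and the translocon gene Sec61b 2.07-fold. The chaperone gene Hspa5, a marker of the unfolded protein response, lay at 10.76 and 10.42 against 10.03 to 10.41 and was not called, and Pdia4 rose 1.88-fold with 8.59 and 9.34 in the lesions, and lost its call without WT array 1, 3 or 4 or lesion array 1 or 2 (adjusted p = 0.0512 to 0.321). The gene that fell was the transport GTPase gene Sar1b (log2 -0.95 ± 0.33, adjusted p = 0.0498). Its call was lost without WT array 1, 3 or 4, Prkaca+/- array 1, 2 or 4, Prkar1a+/- lesion array 3, or lesion array 1 or 2 (adjusted p = 0.0570 to 0.335). The count of raised genes was 14 without lesion array 1 and 14 without lesion array 2.

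In the Wnt pathway 12 of 31 tested genes rose and 3 fell (median 0.48, 0.16 and 0.81 on lesion arrays 1 and 2, and 0.22 without background correction). By share 38.7% rose and 9.68% fell, beside 14.3% and 11.4% over all genes. The risers included secreted antagonists. Sfrp4 measured 10.94, 11.10, 9.31 and 9.36 in WT and 14.20 and 12.60 in the lesions (9.34-fold, adjusted p = 0.00409). Its relative Sfrp2 measured 10.82, 10.92, 9.54 and 9.26 in WT and 13.97 and 12.65 in the lesions (9.04-fold). Dkk3 measured 11.23, 11.21, 10.83 and 10.61 in WT and 12.64 and 12.87 in the lesions (3.46-fold). Of 2 further Dkk3 probes 1, near background and detected on 1 of 4 WT arrays, stood at 0.35 and was not called. Ccn4, a Wnt target also called WISP1, rose 6.39-fold. Lesion array 1 was the higher of the lesion arrays for Sfrp2, Sfrp4 and Ccn4. Without lesion array 2, Sfrp4 rose 16.3-fold and Sfrp2 14.3-fold. Without lesion array 1, Sfrp2 rose 5.72-fold and Sfrp4 was not called (adjusted p = 0.0705). The receptors Fzd4 (-1.24) and Fzd7 (-1.19) and the antagonist Sostdc1 (-1.15) fell, and none of the 3 was called without lesion array 1 (adjusted p = 0.151, 0.136 and 0.450). Fzd4 and Sostdc1 also lost their calls without WT array 1, 3 or 4 (adjusted p = 0.0636 to 0.0888), Fzd4 without lesion array 2 (0.136), and Sostdc1 without Prkaca+/- array 1, 2 or 4 or Prkar1a+/- lesion array 3 (0.0516 to 0.0567). Without lesion array 2 the fall of Sostdc1 was 3.38-fold.

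Of the BMP and TGF-beta genes 13 of 35 rose and 3 fell, and the number that rose was 6 without lesion array 2. With all arrays the shares were 37.1% higher and 8.57% lower, beside 14.3% and 11.4% over all genes. Bmp3, a BMP that restrains bone formation, measured 7.74, 7.55, 7.44 and 7.75 in WT and 9.64 and 9.81 in the lesions (4.31-fold, adjusted p = 0.00106). Bmp1, a procollagen-cleaving protease, rose 3.11-fold and Tgfb1, stored in bone matrix, 2.77-fold. The activin subunit gene Inhba measured 8.99, 8.81, 7.65 and 8.02 in WT and 9.42 and 10.62 in the lesions and rose 3.15-fold. It rose 4.77-fold without lesion array 1 and was not called without lesion array 2 (adjusted p = 0.136). The receptor genes Bmpr1b (-1.28) and Acvr2b (-0.77) and the ligand Bmp6 (-1.12) fell, with none called without lesion array 1 (adjusted p = 0.149 to 0.256). Acvr2b was also not called without lesion array 2 or WT array 3 or 4 (adjusted p = 0.138, 0.0707 and 0.0633), and Bmp4 (0.47 ± 0.31) was not called.

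Growth factors and hormones of bone held 9 risers and 0 fallers of 21, 4 risers without lesion array 1 and 4 without lesion array 2. With all arrays the share called higher was 42.9%, beside 14.3% over all genes. The insulin-like growth factor gene Igf1 measured 8.60, 9.26, 7.86 and 7.66 in WT and 10.07 and 10.40 in the lesions (3.71-fold). Of its binding proteins, Igfbp3 measured 7.12, 7.29, 7.02 and 7.06 in WT and 9.20 and 9.26 in the lesions (4.31-fold, adjusted p = 0.00294). Igfbp4 measured 11.86, 12.64, 11.26 and 11.14 in WT and 13.46 and 13.81 in the lesions (3.74-fold). Igf2 rose 2.52-fold, and was not called without WT array 1, 3 or 4, Prkaca+/- array 1 or lesion array 1 (adjusted p = 0.0514 to 0.331). Igfbp3 had the narrowest WT range of these genes. Igf1 was not called without lesion array 2 (adjusted p = 0.0523).

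In the list of prostaglandin synthesis and interleukin-1 genes 7 of 16 rose (43.75%) and 1 fell (6.25%), beside 14.3% and 11.4% over all genes. The cytokine Il11, which acts on osteoclast formation, measured 6.46, 6.03, 5.02 and 5.82 in WT, detected on 3 of 4 arrays, and 8.77 and 7.90 in the lesions (5.66-fold, adjusted p = 9.73e-04). Il1b measured 7.23, 5.31, 4.84 and 4.83, detected on 2 of 4 WT arrays, and 7.64 and 8.26 (5.27-fold), with WT array 1 close below the lesions and the call lost without lesion array 2 (adjusted p = 0.0795). Ptgs2, the inducible cyclooxygenase, rose 2.23-fold to 6.26 and 6.62, with no call without lesion array 1 or 2 (adjusted p = 0.0638 to 0.123), while its partner Ptges (0.52 ± 0.23) was not called. The synthase gene Ptges2 fell by 0.69 ± 0.23, and that call was lost without WT array 1, 3 or 4, Prkaca+/- array 2 or 3, or lesion array 1 or 2 (adjusted p = 0.0515 to 0.290). The list held 4 risers without lesion array 1 and 4 without lesion array 2.

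Chemokine genes had 6 of 23 higher (26.1%, beside 14.3% over all genes) and 0 lower (median 0.97, and 0.55 without background correction). Cxcl5, which attracts neutrophils, measured 9.11, 6.64, 6.03 and 5.07 in WT, detected on 3 of 4 arrays, and 9.72 and 10.71 in the lesions (11.3-fold, adjusted p = 0.0148). It rose 19.7-fold without WT array 1 and was not called without lesion array 1 or 2 (adjusted p = 0.0631 and 0.113). The receptor gene Cx3cr1, carried by monocytes and macrophages, rose 6.40-fold, from 8.10, 7.36, 6.28 and 5.91 to 9.47 and 9.71. Ccl2 (1.16 ± 0.62) and Cxcl12 (-0.22 ± 0.38) were not called. The chemokine count was 10 without WT array 2, 3 without lesion array 1 and 2 without lesion array 2.

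Markers of blood and immune cells were measured because lesion and WT bone can hold different amounts of marrow. Over all genes 14.3% were called higher and 11.4% lower. The shares called higher were 16.7% for macrophage, 23.1% for T and NK cell and 25% for megakaryocyte genes. Granulocyte genes had 9.09% called each way, and interferon and MHC genes 5.26%. Whether any of these shares differs from that over all genes was not tested. Of 18 macrophage genes 3 rose, Cx3cr1, Aif1 (log2 2.07 ± 0.54) and the lectin Clec4n (4.05-fold), and the list mean was 9.22 and 9.33 in the lesions and 7.66 to 8.98 in WT. WT array 2 was the highest WT array. Without it 9 macrophage genes were called higher, without Prkar1a+/- lesion array 1 or 2 5, and without lesion array 1 or 2 0 and 1, with Cx3cr1 and Aif1 lost in both (adjusted p = 0.0552 to 0.133) and Clec4n without lesion array 1 (0.0645). Adgre1 (F4/80) differed by 1.14 ± 0.53 without a call. Of 13 T and NK cell genes 3 rose, the receptor chain Cd247 (6.32, 6.20, 6.63 and 6.87 in WT, 8.74 and 8.30 in the lesions), the adaptor Lat and Cd4, while the T cell receptor chains Cd3e (0.13 ± 0.51) and Cd3d (0.50 ± 0.56) were not called. Lat and Cd4 were not called without lesion array 1 (adjusted p = 0.0833 and 0.0933) nor Cd4 without lesion array 2 (0.0941). Of 11 granulocyte genes 1 rose, Prtn3 (at least 2.08-fold, not detected on any WT array), and 1 fell, Fcnb, while S100a8 (0.70 ± 0.50) and S100a9 (1.09 ± 0.60) were not called. Of 8 B cell genes 0 rose and 0 fell, and of 19 interferon and MHC genes 1 rose (the MHC class II activator Ciita) and 1 fell (Rsad2). The mean of the interferon and MHC list was 8.88 and 9.04 in the lesions and 7.62 to 8.89 in WT, and without WT array 2 7 of its genes were called higher. The calls of Prtn3, Fcnb, Ciita and Rsad2 were lost without lesion array 1 (adjusted p = 0.0733, 0.224, 0.213 and 0.332), and that of Rsad2 without WT array 3 (0.0628). Fcnb also lost it without WT array 1, 3 or 4, Prkaca+/- array 1, Prkar1a+/- lesion array 3 or lesion array 2, and Ciita without those arrays or Prkaca+/- array 2, 3 or 4 (adjusted p = 0.0538 to 0.113 and 0.0576 to 0.145). Of 8 megakaryocyte genes 2 were called higher, Rab27b (at least 1.34-fold) and Gp1bb near background, and Pf4 (0.44 ± 0.32) was not. A second Rab27b probe, detected on 0 of 4 WT and 1 of 2 lesion arrays, stood at 0.20 and was not called. By its main probe Rab27b was not called without lesion array 1, and Gp1bb lost its call without any 1 of the 6 arrays. Gp1bb also lost it without Prkaca+/- array 1, 2 or 3 or Prkar1a+/- lesion array 3.

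Genes of cell division rose in 19 of 26 cases (73.1%, beside 14.3% over all genes) with 0 falling. The median was 1.12, and 0.71 without background correction. Top2a, the topoisomerase of mitosis, measured 5.21, 5.53, 4.96 and 5.28 in WT, detected on 1 of 4 arrays, and 7.0 and 7.46 in the lesions (3.96-fold, adjusted p = 3.62e-04). The cyclin Ccna2 measured 4.90, 5.21, 4.54 and 4.68 in WT, not detected on any array, and 6.84 and 6.75 in the lesions, and was at least 2.73-fold higher. Prc1, a midzone protein of the spindle, measured 6.86, 7.78, 6.85 and 6.82 in WT and 9.15 and 9.05 in the lesions (4.06-fold). The lesion arrays did not overlap with WT in any of the 3. Cdk1 was at least 2.52-fold higher by a probe that no WT array detected (adjusted p = 8.66e-05), whereas its other probe differed by 0.17 and was not called. Among probes detected on all 13 arrays the list held 9 risers of 12 tested, since dim probes leave the test, at a median of 1.13. Of 12 ribosomal protein genes 4 (33.3%) rose by up to 1.87-fold (Rpl3) and 0 fell. Without lesion array 1 the count was 1, and Rpl3 was not called (0.0867). A second Rps19 probe, detected on 0 of 4 WT and 1 of 2 lesion arrays, stood at 0.15 beside 0.82 and was not called. Rplp0 differed by -0.29 ± 0.21.

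Among the largest falls, Pdk4, which shuts pyruvate out of oxidation, measured 10.78, 9.75, 12.56 and 13.01 in WT and 8.61 and 6.92 in the lesions, a fall of 3.76 ± 0.94 on the log2 scale (13.6-fold, adjusted p = 0.0138). Abra, an actin-binding protein gene of striated muscle, measured 10.95, 11.05, 11.38 and 12.06 in WT and 8.20 and 8.08 in the lesions (9.30-fold lower, adjusted p = 0.00529). The slow and cardiac myosin heavy chains Myh7 (9.83, 10.26, 10.35 and 10.11 in WT, 7.06 and 8.20 in the lesions) and Myh6 (9.89, 10.69, 10.43 and 9.61 in WT and 7.58 and 7.92 in the lesions) fell 5.70-fold and 5.32-fold, and the muscle ubiquitin ligase gene Trim63 5.32-fold. No lesion value overlapped with WT for these genes, which the choice of the largest falls required. WT array 2 was the lowest WT array for 11 of the 15 largest falls and for 58.5% of all 1256 genes that fell. Pdk4 was not called without lesion array 2 (adjusted p = 0.131), fell 24.4-fold without lesion array 1 and 20.5-fold without WT array 2. Myh7 and Myh6 were not called without lesion array 1 (adjusted p = 0.0709 and 0.0594). Mettl21c, Phkg1, Asb11, Prkaa2, Car14, Magix, Cpt1b and Hspa1l fell between 4.87-fold and 6.40-fold. Of these 8, Magix alone kept its call without lesion array 1, and the adjusted p of the other 7 was then 0.0551 to 0.198. Without lesion array 2, Magix and Hspa1l kept it and the other 6 stood at 0.0579 to 0.179. Mettl21c, Phkg1, Asb11, Prkaa2 and Cpt1b also lost it without WT array 3 or 4 (0.0534 to 0.0735), and Mettl21c, Asb11 and Cpt1b without WT array 1 (0.0513 to 0.0543).

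Muscle itself moved with the groups. Of 26 tested skeletal muscle genes 23 had both lesion arrays below all WT arrays, beside 23.4% over all genes. By call 4 were lower (15.4%) and 0 higher, beside 11.4% and 14.3% over all genes. The list mean was 13.60 to 13.76 on the WT arrays, 12.43 and 12.52 on lesion arrays 1 and 2 and 10.02 to 13.16 over the 3 Prkar1a+/- lesions. The spread of that last group enters the fit: with only the 6 arrays 19 genes were called lower, and without Prkar1a+/- lesion array 1 or 2 16 and 18. Without 1 WT array or Prkaca+/- array 1, 2 or 3 or Prkar1a+/- lesion array 3 the count was 1 or 2, and it was 0 and 1 without lesion arrays 1 and 2. The called genes included Myh7, the calcium store protein Casq1 (7.95 and 8.20 in the lesions, 9.82 to 10.51 in WT) and the slow troponin Tnnt1 (13.24 and 13.40 in the lesions, 14.57 to 14.92 in WT). Casq1 and Tnnt1 were not called without lesion array 1 (adjusted p = 0.188 and 0.201), lesion array 2 (0.128 and 0.142), WT array 1, 3 or 4, Prkaca+/- array 1, 2 or 3 or Prkar1a+/- lesion array 3, and Tnnt1 also not without WT array 2 or Prkaca+/- array 4 (adjusted p = 0.0509 to 0.0889 and 0.0575 to 0.0653). The actin Acta1 (0.11 ± 0.25), Ckm (-1.62 ± 0.78) and Mb (-0.27 ± 0.45) were not called, with 15.40 and 15.39 for Acta1 in the lesions and 15.19 to 15.44 in WT. A second Mb probe differed by -1.41 ± 0.57 and was not called either (adjusted p = 0.0878), with 13.36 and 13.20 in the lesions and 14.61 to 14.80 in WT. The part that the amount of muscle in the sample has in the other falls was not tested.

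Genes of oxidative phosphorylation, which muscle mitochondria use heavily, fell in 15 of 27 cases and rose in 1 (Cox8a), at a median of -0.71. By share 55.6% fell and 3.70% rose, beside 11.4% and 14.3% over all genes. Cytochrome c, Cycs, measured 9.42, 9.23, 10.13 and 9.83 in WT and 8.51 and 8.94 in the lesions. The complex II gene Sdhc measured 11.91, 11.69, 12.03 and 11.99 in WT and 11.13 and 10.82 in the lesions, and the complex I gene Ndufa9 11.92, 11.58, 12.33 and 12.24 in WT and 10.96 and 11.26 in the lesions. These 3 fell by 0.93 ± 0.28, 0.93 ± 0.23 and 0.91 ± 0.24, with the lesions below every WT array. After leaving arrays out, 0 genes were called lower without lesion array 1, 1 without lesion array 2, 8 without WT array 3 and 6 without WT array 4. Cycs, Sdhc, Ndufa9 and Cox8a were not called without lesion array 1 or 2 (adjusted p = 0.0519 to 0.235), nor Cycs without WT array 3 or 4 (0.0733 to 0.0765).

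Fat cell genes fell in 13 of 21 cases (61.9%, beside 11.4% over all genes) and rose in 0, at a median of -1.14. Cidec, which fuses lipid droplets, measured 9.57, 9.08, 9.78 and 9.55 in WT and 6.61 and 6.46 in the lesions (7.79-fold lower, log2 -2.96 ± 0.57, adjusted p = 0.00410). The lipid droplet coat gene Plin4 measured 12.31, 11.80, 12.65 and 12.38 in WT and 9.76 and 10.26 in the lesions (4.84-fold), and leptin, Lep, 9.24, 8.38, 9.01 and 8.86 in WT and 6.74 and 6.96 in the lesions (4.05-fold). All 3 had both lesions far below WT. The hormone gene Adipoq (-1.10 ± 0.58, 10.13 and 10.49 in the lesions against 11.07 to 11.84) and Plin1 (-1.06 ± 0.44) were not called. Cidec was called under each array left out, whereas Plin4 and Lep were not called without lesion array 1 (adjusted p = 0.117 and 0.159) or 2 (0.0542 and 0.107) and Lep not without WT array 1, 3 or 4 (0.0571 to 0.0632). The list count was 1 and 5 without lesion arrays 1 and 2, and 8 without WT array 1 or 3. Of 7 red cell genes 2 fell, Alas2, the first enzyme of heme synthesis (6.51, 8.02, 6.70 and 8.05 in WT, 4.72 and 5.56 in the lesions), and the transferrin receptor gene Tfrc (-0.55 ± 0.18), and neither was called without lesion array 1 (adjusted p = 0.147 and 0.232). Tfrc was also not called without lesion array 2 or WT array 1, 3 or 4, nor without Prkaca+/- array 2 or 4 (0.0517 to 0.1001). The globin gene Hba-a1 (-1.75 ± 0.75) was not called.

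**Figure D4:**
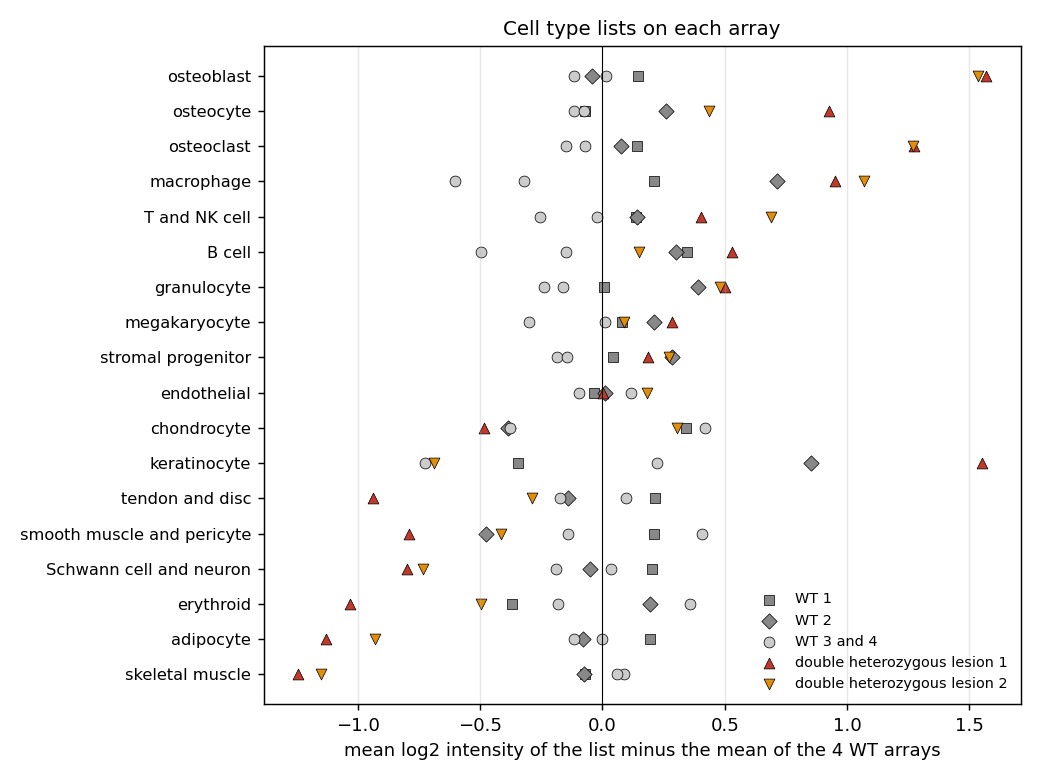
Mean log2 intensity of each cell type list on each of the 6 arrays, minus the mean of the 4 WT arrays (horizontal axis), with 1 symbol per array. Both lesion arrays lie above all WT arrays for the osteoblast and osteoclast lists and below them for the adipocyte and skeletal muscle lists, whereas the keratinocyte list parts them, with a mean before subtraction of 8.98 on lesion array 1 and 6.74 on lesion array 2.

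Endothelial genes held 2 risers, Sox18 and Stab1, and 1 faller, the sinusoidal scavenger receptor Stab2, of 19. These shares of 10.5% and 5.26% lay below the 14.3% and 11.4% over all genes. Stab2 measured 7.31, 7.20, 6.60 and 6.67 in WT and 5.38 and 5.38 in the lesions (2.96-fold lower, adjusted p = 0.00149), while Pecam1 (-0.01 ± 0.28) and Cdh5 (-0.14 ± 0.34), present in all endothelium, were not called. Sox18 and Stab1 lost their calls without lesion array 1 or 2 (adjusted p = 0.0699 to 0.196), and Stab1 without WT array 1, 3 or 4 (0.0700 to 0.0804). Smooth muscle and pericyte genes fell in 4 of 16 cases, led by Myocd (-1.80) and Abcc9 (-1.19), and rose in 1 (Hey1). These shares were 25% and 6.25%, beside 11.4% and 14.3% over all genes. None of the 4 falls was called without lesion array 1 and 2 were without lesion array 2. The adjusted p was 0.0664 for Myocd without lesion array 1, 0.0684 to 0.0842 for Abcc9 and 0.0635 to 0.0963 for Hey1 without lesion array 1 or 2. Stromal progenitor genes rose in 4 of 19 (21.1%, beside 14.3% over all genes), at a median of 0.16. Among them were Fap (3.44-fold) and the transcription factor Twist1 (2.23-fold). All of these calls, that of Fap included, were lost without lesion array 1, and most, that of Twist1 included, without lesion array 2. Without WT array 1, 3 or 4 the count was 2. The Schwann cell and neuron list had 3 of 8 genes lower (37.5%, beside 11.4% over all genes) and 0 higher, at a median of -0.76. Without lesion array 1 the count of lower genes was 1. The list mean was 8.53 and 8.59 on lesion arrays 1 and 2, below the WT arrays (9.14 to 9.53). The myelin gene Mag fell by 1.12 ± 0.22, and Mbp fell by 1.82 ± 0.45, but 1 of 2 further Mbp probes stood at 0.43 and was not called, and without lesion array 1 its adjusted p was 0.143. Among 14 cartilage genes 0 rose and 1 fell, Cytl1 (7.14%, beside 11.4% over all genes). Col2a1, Acan and Sox9 were each higher on lesion array 2 than on lesion array 1, with Col2a1 at 9.42 and 11.55. Tendon and disc genes rose in 0 and fell in 1 (Angptl7) of 12, a share of 8.33%. Cytl1 and Angptl7 lost their calls without lesion array 1 (adjusted p = 0.328 and 0.278) or 2 (0.0777 and 0.0790) and without WT array 1, 3 or 4 (0.0665 to 0.106). Cytl1 also lost it without Prkaca+/- array 1 or 2 and Angptl7 without Prkaca+/- array 3 or 4, and both without Prkar1a+/- lesion array 3 (0.0524 to 0.0551). Keratinocyte genes, which mark skin, rose in 0 and fell in 1 (Dmkn, -1.14, with its other 2 probes not called and no call without WT array 3 or 4 or lesion array 2, adjusted p = 0.0595 to 0.255) of 7, and Krt14, a keratin of the basal epidermis, measured 8.09, 8.76, 8.24 and 6.35 in WT and 11.48 and 6.58 in the lesions, above all WT arrays on lesion array 1 only. With each array left out in turn, the raised genes numbered 0 to 2 for keratinocyte, 0 to 4 for osteocyte, 0 to 3 for granulocyte, 0 to 2 for B cell, 0 to 2 for megakaryocyte and 0 to 7 for interferon and MHC genes, and the lowered tendon and disc genes 0 to 3.

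Of 18 early response and heat shock genes 2 were called higher and 2 lower, 11.1% each way, which is no more than the 14.3% and 11.4% over all genes. The heat shock gene Hspa1a measured 8.33, 8.65, 8.42 and 8.36 in WT and 6.40 and 6.99 in the lesions (log2 -1.75 ± 0.21, adjusted p = 2.43e-04), and Hspa1l, its neighbour in the same family, also fell. Junb, an AP-1 subunit, measured 8.18, 8.67, 7.66 and 7.87 in WT and 8.74 and 10.45 in the lesions (2.83-fold), with lesion array 1 close to WT array 2. It was not called without lesion array 2 (adjusted p = 0.272) and rose 5.12-fold without lesion array 1. Atf3, a stress-induced transcription factor, fell from 7.63, 9.52, 7.69 and 8.60 to 5.92 and 7.30, with a fall of 5.42-fold without lesion array 2 and no call without lesion array 1, WT array 2 or WT array 4 (adjusted p = 0.326, 0.0501 and 0.0749).

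Each lesion array was also set against WT by itself, as a description with no test. On lesion array 1, 991 genes stood at least 2-fold above the WT mean and above all WT arrays, on lesion array 2, 872, and on both, 631. In the other direction the counts were 787, 662 and 476. Lesion array 1 was the higher in 906 of the 1571 genes that rose and the lower in 704 of the 1256 that fell. Among called genes the lesion arrays differed by 2-fold or more in 61 that rose and 27 that fell.

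The called genes with the largest gap between the lesion arrays were chosen for that gap. A call lost without the higher lesion array therefore follows in part from the choice. The granzymes Gzme (9.90 and 6.04 on lesion arrays 1 and 2, 4.39 to 5.49 in WT) and Gzmd (8.91 and 5.71, 4.63 to 4.96 in WT), proteases of cytotoxic lymphocytes, were high on lesion array 1. The arginine methyltransferase Prmt8 (9.17 and 6.10), the transporter gene Slc35d3 (7.86 and 4.94) and the progesterone-metabolising enzyme gene Akr1c18 (7.24 and 4.93) had the same order. For Prmt8, lesion array 2 lay below WT array 1. None of the 5 was called without lesion array 1 (adjusted p = 0.372 to 0.616), and without lesion array 2 the rise was 35.1-fold for Gzme and 12.6-fold for Prmt8. Gzmd, Slc35d3 and Akr1c18 were not detected on any WT array, and Gzme on 1 of 4. Without WT array 3 or 4 the adjusted p of these 5 was 0.0501 to 0.0734, and without WT array 1 that of Slc35d3 was 0.0593. A second Gzmd probe, detected on 0 of 4 WT and 1 of 2 lesion arrays, was not called (0.57). Lesion array 2 was high for Notum (7.17 and 10.45, 5.54 to 6.37 in WT), a secreted enzyme that inactivates Wnt ligands, for Fam155a (5.97 and 8.37), the receptor-like gene Fcrls (6.08 and 8.02), Otor (5.20 and 7.14), a secreted protein of cartilage and inner ear, and the asparaginase gene Aspg (6.30 and 8.10). Fcrls, Otor and Aspg were not detected on any WT array. Without lesion array 2 only Aspg of these 5 was called, and the adjusted p of the others was 0.0981 to 0.308. Without lesion array 1, Notum rose 20.96-fold.

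**Figure D5:**
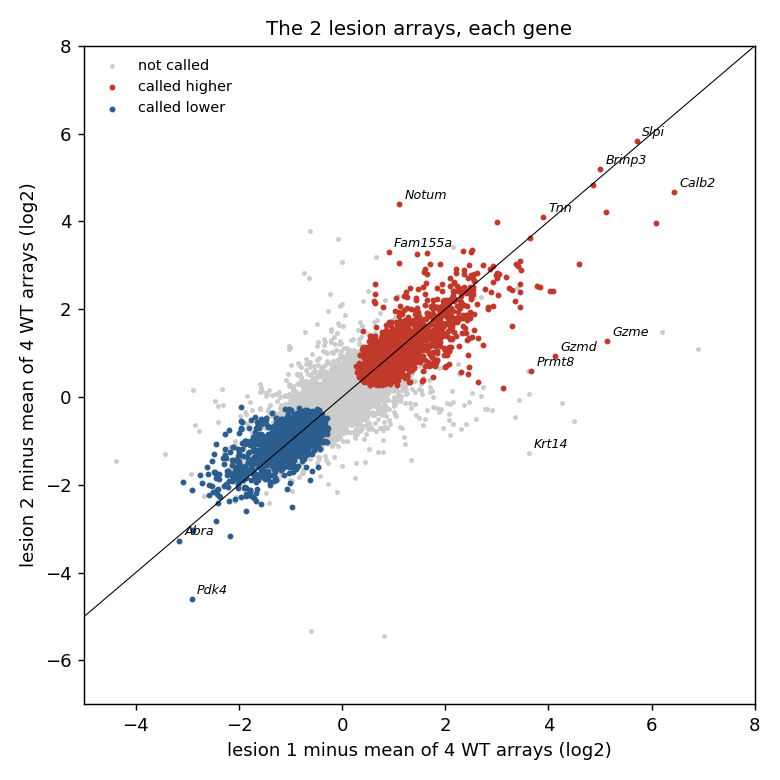
Each gene's value on lesion array 1 (horizontal) and lesion array 2 (vertical) minus the mean of the 4 WT arrays, in log2 units, with called genes in colour and the line of equal change. Most called genes lie near the line, which follows in part from calling them on these arrays. Gzme, Gzmd and Prmt8 lie to the right of the line and Notum and Fam155a above it.

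In the group most like it, lesions of Prkar1a+/- mice with both Prkaca alleles, 0 of 10992 genes differed from the double heterozygous lesions in either direction (0% called). The unadjusted limma p was under 0.05 for 384 of the 10992 genes, and the smallest adjusted p was 0.0909. That count is below the share of 0.05 which this threshold passes when no gene differs. A p that misses the threshold does not show that the groups are alike, and the counts were up to 23 higher and 3 lower when 1 array was left out. Ifitm5 differed by -0.87 (95% interval -1.64 to -0.10), Tnfsf11 by -0.83 (-2.15 to 0.48), Gzme by -1.42 (-3.58 to 0.74) and Notum by 1.54 (-0.05 to 3.13), none of them called. Against Prkaca+/- bone without lesion, 1708 genes were higher (15.5%) and 1486 lower (13.5%). Slpi differed there by 7.03, Calb2 by 6.29, Tnn by 4.73, Dcstamp by 3.57, Pdk4 by -3.96 and Cidec by -3.31 on the log2 scale, each called. These comparisons share the lesion arrays with the comparison against WT, so their values stand side by side and are not separate evidence.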

How the data were processed

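Trizol-extracted total RNA was passed over RNeasy columns, treated with DNase I and amplified into biotin-labelled cRNA, per the labels' protocols. Neither scanner nor software is named there. The authors deposited an average signal intensity and a detection p-value for each probe and array, per the file headers, and left the intensity empty where the detection p-value exceeded 0.1. The second deposited table holds a score, found here to be the same intensity centred and scaled linearly within each array (column medians -0.18 to -0.16), and it served only as an alternative.

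For each array the mean and SD of the background were the intercept and slope of a line fitted to intensity against normal quantiles of the detection p-value (0.01 to 0.1), and empty cells were filled from the same line. The normexp correction followed, with an offset of 16, quantile normalisation and log2. Probes with a detection p-value under 0.01 on at least 2 arrays were tested, 16226 in all. Symbols come from the platform annotation, which names 1 gene for 23978 probes and none for 1719, and 23962 of the named probes matched RefSeq. Where a gene had several tested probes, the one of highest mean stands for it. Folds are 2 to the power of the difference. A fold against a group in which no array detected the probe is a bound, computed against the lowest detected signal.

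limma 3.58.1 in R 4.3.3 fitted a mean for each of the 4 groups over 13 arrays, leaving 9 residual degrees of freedom. P-values, two-sided, were adjusted over the tested probes by Benjamini-Hochberg and called under 0.05. Adjusted p-values come from this fit or, where an array is named as left out, from the same fit without it. The genes named are the 15 largest rises and falls without overlap between groups and detected on every array of the brighter group (passing over clone and locus identifiers), the 3 largest called of each direction in each of 35 lists, the first 3 of each list, called or not, the PKA genes, 5 genes with the largest gap between the lesion arrays each way, and the sex genes. The members and lists were chosen with earlier results of these data known. Alternatives were other background and scaling choices, filters, subsets of arrays, a sex covariate and each array left out.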

Additional observations from a re-analysis of the deposited data

Results flagged for a closer look

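Dixon's test was applied to the 4 WT arrays for 200 named genes and 35 list means, and chance alone flags about 1 in 20 groups. It set apart 18 genes and 2 list means. WT array 1 stood high for Calb2 (7.82, others 4.40 to 4.53), Brinp3 (7.53, others 4.40 to 4.84), Atp12a (10.06, others 5.07 to 5.46), Adgra1 (6.41, others 4.41 to 4.48), Tnfsf11 (7.56, others 5.34 to 5.55) and the platelet gene Gp9 (8.79, others 6.48 to 6.69). The first 5 of these are among the 15 largest rises in the lesions.

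WT array 2 stood high for Bglap (11.66, others 10.58 to 10.72), Prc1 (7.78, others 6.82 to 6.86), the epidermal keratin Krt10 (10.85, others 8.93 to 9.15) and the mean of the osteocyte list (7.80, others 7.42 to 7.46). It stood low for Timp4 (6.53, others 8.58 to 8.85), Creb1 (5.90, others 6.56 to 6.65), Tfrc (11.55, others 11.88 to 11.90) and the cartilage proteoglycan Acan (8.36, others 9.53 to 9.63). For Bglap, Prc1, Timp4, Creb1 and Tfrc, WT array 2 deviated towards the lesions. Its Xist was 8.40 (others 4.69 to 4.86), its Eif2s3y 4.45 (others 11.59 to 11.78), its Kdm5d 4.68 (others 6.91 to 7.04) and the mean of the sex list 5.84 (others 7.52 to 7.61). WT array 3 was high for Sox18 (8.43, others 8.02 to 8.03), and WT array 4 low for Cd3e (5.02, others 5.73 to 5.85).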

How the results depend on the processing

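Of 147 named genes called against WT, 0 reversed under any alternative. Calls lost numbered 82 without lesion array 1, 60 without lesion array 2, 39 and 40 without WT arrays 3 and 4, 27 and 3 without WT arrays 1 and 2, and 55 of 140 with the deposited scores. The fall of Prkar1a and Prkaca kept its call throughout. With each array left out in turn, the 1571 genes called higher against WT became 572 to 1767 and the 1256 lower 164 to 1554. With the scores the lower count was 836. Against Prkar1a+/- lesions the 0 higher became 0 to 23 and the 0 lower 0 to 3 with 1 array left out, and 27 and 1 with WT arrays 3 and 4 only, an alternative chosen after seeing the data, as was leaving out Prkaca+/- or Prkar1a+/- arrays. Against Prkaca+/- bone the 1708 higher became 778 to 1846 and the 1486 lower 318 to 1709, and 917 with the scores. Scaling to the 75th percentile gave 1391 higher and 1384 lower against WT. The lesions share only replicate numbers 1 and 2 with WT, and the deviations of same-numbered arrays correlated at 0.12 and -0.09. The deviations of 2 lesion arrays from their own mean mirror each other, so these correlations cannot decide whether the numbers pair samples. The fit with the replicate block gave 1151 higher and 746 lower and lost 38 named calls. Fits without a lesion array assume that the remaining one varies like the other groups. Without background correction Magix, a dim gene, fell 2.41-fold, against 5.01-fold with it.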

Other observations

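Outside the gene groups above, genes with a large gap between the lesion arrays were listed whether or not they were called, and those named here were chosen after their values were seen. Keratins and envelope proteins of skin and nail were high on lesion array 1 and on WT array 2. Krt84, a hair and nail keratin, measured 6.41, 9.19, 5.36 and 5.43 on the WT arrays and 11.10 and 6.04 on lesion arrays 1 and 2. Krt2 measured 4.99, 9.16, 4.67 and 4.84 in WT and 10.18 and 5.78 in the lesions, and loricrin, Lor, 6.52, 11.45, 6.19 and 5.35 in WT and 10.99 and 7.44 in the lesions. The secreted antimicrobial lectin gene Reg3g measured 11.35 and 6.62 in the lesions, with lesion array 1 the higher.

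Lesion array 2 was the higher for the early response gene Fosb (6.07 and 10.47) and for the mast cell proteases Mcpt4 (6.77 and 9.86) and Cma1 (6.43 and 9.02). With at least a 2-fold distance from the WT mean on each lesion array, 5 genes lay outside the WT range in opposite directions. Cyp4f18 and Ly6g6c lay above it on lesion array 1 and below it on lesion array 2, whereas Col2a1, Mfap4 and Rgs4 lay below it on lesion array 1 and above it on lesion array 2. These values were not tested.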
